A study of Homo sapiens with 4 samples.

Results

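The immediate early and stress-induced genes FOS, JUN, JUNB, JUND, ATF3, EGR1, EGR2, IER2, GADD45B and BTG2 were followed through ribosome footprint libraries of HEK293 cells. They were chosen by gene symbol in GENCODE release 29, each matched 1 of the 16292 transcripts listed in at least 1 library, and all 10 were among the 9612 genes tested, those that averaged 5 RPKM or more over the libraries. The choice was made with earlier results of these data known. Counts of members set against a background are therefore descriptions and not independent tests. RPKM is the deposited unit, a read count scaled by the length of the coding sequence and the size of the library. HEK293 is an established human embryonic kidney line. The 4 groups, with 1 library in each, were the RPL4 mutant with erythromycin, the RPL4 mutant without erythromycin, the wild type with erythromycin and the wild type without erythromycin. RPL4 is a large-subunit ribosomal protein with a loop that reaches into the exit tunnel of the growing peptide, and erythromycin is a macrolide antibiotic that binds this tunnel in bacterial ribosomes. Per the labels' protocols, stable lines carried GFP, wild type L4 or a form of L4 that lacks a loop (Δloop), and they were infected with lentivirus carrying a short hairpin RNA to RPL4 or a scrambled one. The labels do not say which construct or hairpin each library had, or whether its ribosomes were held with cycloheximide or lactimidomycin, and they give no dose or time of erythromycin. No total mRNA was analysed here, so mRNA level and translation cannot be told apart, nor can fewer cells with a transcript and fewer footprints per cell.

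Immediate early genes are transcribed within minutes of a growth signal or a stress, without new protein synthesis, and most of their mRNAs and proteins are short-lived. Kinase cascades reach them through serum response factor and its ETS partners, which bind CArG boxes, and through CREB and ATF proteins, which bind cAMP response elements. FOS and JUN proteins pair through leucine zippers as the transcription factor AP-1, and JUN kinase and p38, which act on JUN and ATF proteins, are also switched on by stalled and collided ribosomes. Inhibitors of translation elongation are known to raise immediate early mRNAs by themselves, a property called superinduction.

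The libraries differed in depth. They held 993461 reads in the mutant with erythromycin, 604506 in the mutant without it, 2555613 in the wild type with it and 2965243 in the wild type without it, with medians of 40, 23, 91 and 108 reads per tested gene in the same order of groups. In the untreated mutant, the smallest library, MROH9 with 6590 reads led EEF1A1 with 4962, and the top 5 transcripts took 4.88% of reads, against 3.41% to 3.54% in the other 3 libraries. Footprints on RPL4 itself stood at 1439 RPKM in the mutant with erythromycin and 1707 RPKM without it, against 2586 and 2515 RPKM in the wild type with and without it. RPL4 fell by 0.72 on the log2 scale over both treatments (SE 0.15, limma, adjusted p = 0.0180). A transgene copy would be read as RPL4, so this checks the labels only in part. Of 8 genes that HEK293 cells are known to express, 8 were above 0 in every library except the untreated mutant, where NEFM was at 0.

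Promoter windows are shown for the EGR genes, in which response elements were matched and whose footprints were both higher in the untreated mutant, and for GADD45B, which had the widest erythromycin response in the wild type. Each is the 250 bases before the RefSeq start on GRCh38.p14, written 5′ to 3′ on the gene's strand. EGR2 lies at chr10:62816367-62816616 on the minus strand, EGR1 at chr5:138465229-138465478 on the plus strand and GADD45B at chr19:2475877-2476126 on the plus strand. GADD45B held none of the motifs searched, and its footprints were also higher in the untreated mutant. The windows of JUND, with 3 matches to TGACGT, and FOS, with 1, are not shown. Since the windows were picked on motif and response, a link between motif and response cannot be read from them and was not tested. Capitals mark CArG boxes and the core of the cAMP response element, TGACGT read on either strand.
EGR2: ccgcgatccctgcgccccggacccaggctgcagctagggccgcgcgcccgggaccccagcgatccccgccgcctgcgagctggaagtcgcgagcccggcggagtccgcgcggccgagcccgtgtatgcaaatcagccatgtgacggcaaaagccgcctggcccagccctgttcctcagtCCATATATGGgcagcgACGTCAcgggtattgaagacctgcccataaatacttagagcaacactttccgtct
EGR1: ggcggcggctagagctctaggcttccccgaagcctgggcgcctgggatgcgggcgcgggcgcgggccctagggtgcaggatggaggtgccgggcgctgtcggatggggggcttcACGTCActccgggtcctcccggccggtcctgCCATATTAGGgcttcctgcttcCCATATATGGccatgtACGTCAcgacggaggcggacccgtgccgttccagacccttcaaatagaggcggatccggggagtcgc
GADD45B: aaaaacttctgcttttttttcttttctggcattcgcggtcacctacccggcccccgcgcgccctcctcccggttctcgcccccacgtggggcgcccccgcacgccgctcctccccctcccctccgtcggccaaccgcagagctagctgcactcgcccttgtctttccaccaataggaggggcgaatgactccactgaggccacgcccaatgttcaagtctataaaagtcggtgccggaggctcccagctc

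EGR1 held 2 CArG boxes, CCATATTAGG and CCATATATGG, whose first bases lay 105 and 83 bases before the start, and EGR2 held 1, CCATATATGG, at 71 bases. A CArG box stood in 1.19% of the 11128 promoters of tested genes and TGACGT in 9.99%, against 1.16% and 7.1% of all 35116 promoters in the RefSeq table. TGACGT was found in 4 of the 10 members, with 3 matches in JUND, 2 in EGR1, 1 in EGR2 and 1 in FOS. The AP-1 site TGACTCA, present in 2.7% of promoters of tested genes and 4.2% of all promoters, was in 0 of 10. For each gene the window nearest to the listed 5′ end was read, which lay 6348 bases from it for ATF3 and 1564 bases for IER2. All motifs were read on both strands, the capitals shown do not overlap, and a match is only a match of letters.

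The 10 genes spanned a wide range of footprint level in each library. Gene coordinates are those of the listed transcripts in GENCODE 29 on GRCh38. JUN (chr1:58780788-58784327), the AP-1 subunit that pairs with FOS, was at 134 RPKM in the mutant with erythromycin and 133 RPKM in the mutant without it, against 175 and 150 RPKM in the wild type with and without it. These levels stood between the 86.2 and 88.9 percentiles of all tested genes. FOS (chr14:75278774-75282230), its classic partner, was at 3.52 and 7.24 RPKM in the mutant with and without erythromycin and 9.24 and 6.2 RPKM in the wild type with and without it. These FOS levels rest on 4, 5, 27 and 21 reads in the same order of groups, so no order among the 4 libraries can be read for FOS.

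**Figure D1:**
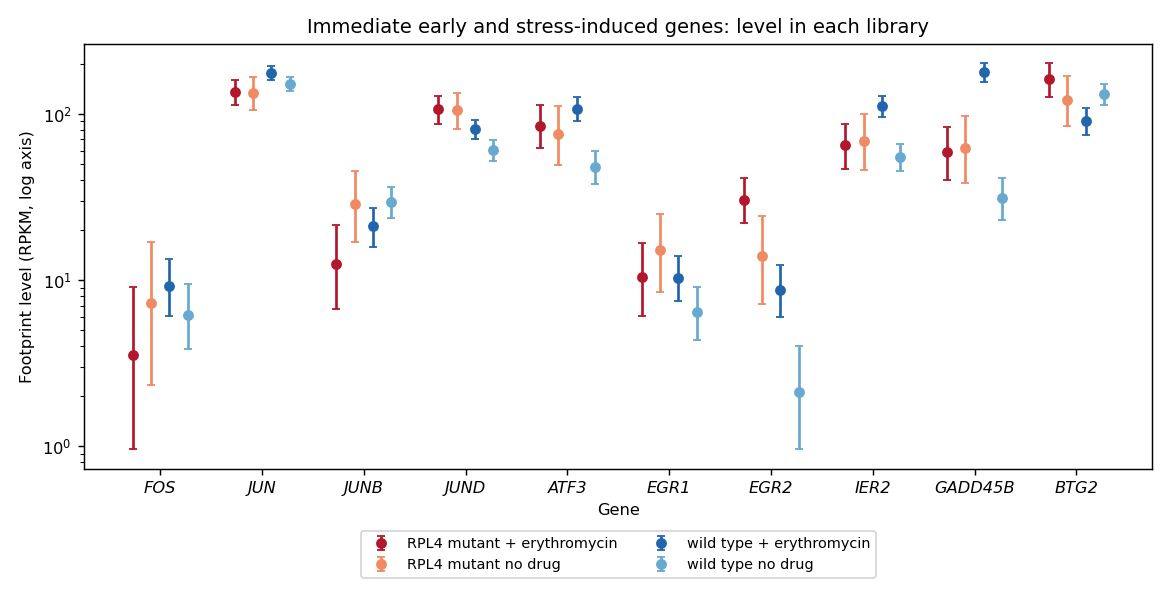
Footprint level of each of the 10 genes in each library, in RPKM on a log axis, with 95% exact Poisson intervals for counting error. EGR2 is at 30.2 RPKM in the mutant with erythromycin and 2.12 RPKM in the untreated wild type, while JUN stays between 133 and 175 RPKM.

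The order of levels differed between libraries at its upper end. GADD45B was first in the wild type with erythromycin at 177 RPKM and sixth in the other 3 libraries, at 58.8 RPKM in the mutant with erythromycin, 62.3 RPKM in the mutant without it and 31.1 RPKM in the wild type without it. BTG2 was first in the mutant with erythromycin, and JUN was first in both untreated libraries. Neighbours in the order mostly could not be told apart by counting error. In the mutant libraries the only gap between neighbours whose intervals did not overlap was between EGR2 and JUNB with erythromycin. In the wild type libraries such gaps lay below JUN and below JUND and JUNB with erythromycin, and below BTG2 and JUNB without it.

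The first comparison asked which of the 10 genes gained or lost footprints with erythromycin, in each genotype. In the RPL4 mutant they were mostly close to the median gene. EGR2 was at least 2-fold higher and JUNB at least 2-fold lower, 1 of 10 in each direction, against backgrounds of 6.22% higher and 3.39% lower among the 9612 tested genes. A ratio is the log2 ratio of RPKM plus 1, centred on the median of all tested genes, and brackets give the 95% interval of the read ratio, computed without the added 1 RPKM and covering counting error only. EGR2 was at 30.2 RPKM in the mutant with erythromycin and 13.9 RPKM without it, from 43 and 12 reads, a ratio of 1.02 [0.12, 2.13]. JUNB was at 12.5 RPKM with and 28.5 RPKM without the drug, from 13 and 18 reads, a ratio of −1.18 [−2.39, −0.13]. With 5 RPKM added in place of 1, EGR2 was at 0.86 and JUNB at −0.98, so neither was past 2-fold. With all libraries thinned to the reads of the smallest, by a single random draw, EGR2 was at 0.59. Here and below, another draw could give other values after thinning. The median ratio of the 10 was −0.09, with 7 below 0, against 0 for all tested genes. Each group had a single library, so these differences carry no replicate error and no p.

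GADD45B, ATF3 and IER2 had ratios near 0 in the mutant. GADD45B was at 58.8 RPKM with and 62.3 RPKM without erythromycin in the mutant, a ratio of −0.14 [−0.99, 0.75]. ATF3 had a ratio of 0.11 [−0.62, 0.87] and IER2 of −0.15 [−0.87, 0.59] in the mutant. Their intervals are wide because the untreated mutant held only 20 to 28 reads on each of these 3 genes. BTG2 had a ratio of 0.35 [−0.25, 0.97], JUN −0.04 [−0.45, 0.38] and JUND −0.03 [−0.49, 0.43], all of which include 0, as did EGR1 at −0.55 [−1.68, 0.52] and FOS at −0.92 [−3.42, 1.12].

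In wild type cells more of the 10 genes were past 2-fold with erythromycin. GADD45B, EGR2, ATF3 and IER2 were at least 2-fold higher with the drug, JUNB and BTG2 were lower by less than 2-fold, and the other 4 lay between. The 4 higher members of 10 stand against a background of 1.73% of 9612 tested genes past the same fold, and the 0 lower members against 1.54%. As the members were chosen with earlier results known, these shares only describe them. The median ratio of the 10 was 0.58, against 0 for all tested genes, whose middle 50% lay between −0.24 and 0.23. With 5 RPKM added, EGR2 at 0.96 and IER2 at 0.97 were short of 2-fold. After thinning, IER2 and ATF3 were short of it at 0.87 each, and FOS stood at −1.47, so 2 members were higher and 1 lower.

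GADD45B (chr19:2476148-2477436), a small stress-induced protein that binds the kinase MAP3K4 upstream of p38 and JUN kinase, had 240 reads in the wild type with erythromycin and 49 without it. Its ratio was 2.48 [2.07, 3.0]. EGR2 (chr10:62811996-62816355), a zinc-finger transcription factor known for its part in myelination, was at 8.75 RPKM with erythromycin and 2.12 RPKM without it in the wild type, from 32 and 9 reads. Its ratio of 1.66 [0.96, 3.31] has the widest interval of the 4. ATF3 (chr1:212608670-212620777), a leucine-zipper factor induced by many stresses, was at 107 RPKM with and 47.6 RPKM without erythromycin in the wild type, a ratio of 1.17 [0.78, 1.60]. IER2 (chr19:13151975-13154908), a small nuclear protein among the earliest transcripts after serum, was at 111 RPKM with and 54.7 RPKM without the drug, a ratio of 1.02 [0.68, 1.38].

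The JUN proteins had smaller ratios in the wild type. JUN had a ratio of 0.23 [0.04, 0.43] and JUND (chr19:18279760-18281622), the JUN protein that resting cells already hold, 0.43 [0.14, 0.72]. JUNB (chr19:12791496-12793315), which can restrain JUN, was at 21.0 RPKM with and 29.4 RPKM without erythromycin, a ratio of −0.45 [−0.98, 0.03] that includes 0. FOS at 0.52 [−0.28, 1.49] was not distinguishable from 0 either, and EGR1 at 0.63 [0.00, 1.42] lay at the edge. BTG2 (chr1:203305491-203309569), an antiproliferative p53 target that brings the CCR4-NOT deadenylase to mRNAs, was at 90.2 RPKM with and 131 RPKM without erythromycin, a ratio of −0.52 [−0.87, −0.17].

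**Figure D2:**
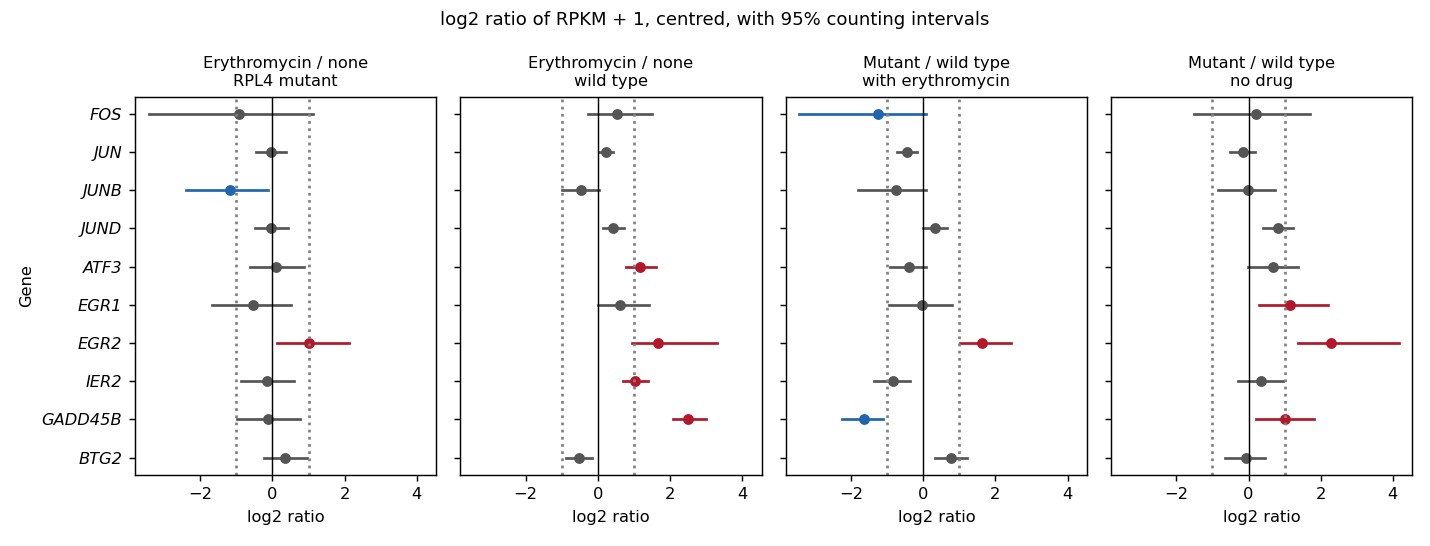
Centred log2 ratio of RPKM + 1 for the 10 genes in the 4 comparisons of 2 libraries, with 95% counting intervals, dotted lines at 2-fold, and colour for genes at or past 2-fold (red higher, blue lower). EGR2 is past 2-fold higher in each panel, and GADD45B is at −0.14 for erythromycin in the mutant and 2.48 in the wild type.

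The erythromycin responses of the genotypes were then set against each other, as the log2 response in the mutant minus that in the wild type. The difference was beyond 2-fold in the lower direction for 5 of the 10 genes, GADD45B, FOS, EGR1, IER2 and ATF3, against a background of 5.6% of tested genes, and in the higher direction for 0, against 8.29%. GADD45B had the widest difference at −2.62 [−3.58, −1.75]. EGR1 (chr5:138465490-138469315), a zinc-finger factor of the growth response, stood at −1.18 [−2.48, −0.11], IER2 at −1.17 [−1.95, −0.43] and ATF3 at −1.06 [−1.89, −0.28]. The FOS difference of −1.45 [−3.62, 0.33] includes 0 and changed sign after thinning, at 0.78. ATF3 at −0.997 and EGR1 at −0.87 were short of 2-fold with 5 RPKM added, and after thinning EGR1 was short of it at −0.77 and EGR2 past it at −1.32.

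The remaining 5 genes differed by less than 2-fold between the genotypes' responses. BTG2 was alone above 0, at 0.86 [0.18, 1.52], being higher with erythromycin in the mutant and lower in the wild type. EGR2 at −0.64 [−2.36, 0.40], JUNB at −0.73 [−1.88, 0.36], JUND at −0.46 [−0.99, 0.05] and JUN at −0.28 [−0.72, 0.16] had intervals that include 0. The median difference of the 10 genes was −0.90, against 0 for all tested genes, whose middle 50% lay between −0.38 and 0.43. The wild type response and the mutant response come from 4 separate libraries, but each is a single pair, so no replicate error enters these intervals.

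**Figure D3:**
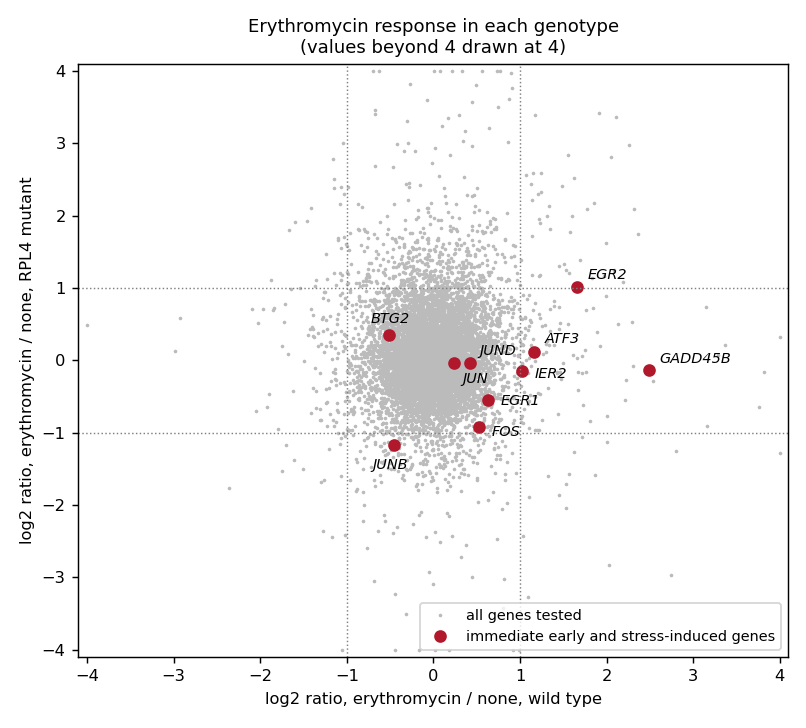
Erythromycin response of each tested gene in the RPL4 mutant (vertical axis) and in the wild type (horizontal axis), as centred log2 ratios of RPKM + 1; grey points are the 9612 tested genes and red points the 10 named genes. ATF3, IER2 and GADD45B lie near 0 on the mutant axis and right of the 2-fold line for the wild type, and EGR2 lies at 1.02 and 1.66.

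Without erythromycin, the mutant library was compared with the wild type library. The labels do not give the construct or hairpin of either, and their depths differ. The RPL4 change thus cannot be told apart from other differences between them. EGR2, EGR1 and GADD45B were at least 2-fold higher, 3 of 10 against a background of 5.29%, and 0 were at least 2-fold lower, against 3.32%. EGR2 was at 13.9 RPKM in the mutant and 2.12 RPKM in the wild type, from 12 and 9 reads, a ratio of 2.28 [1.36, 4.16]. EGR1 was at 15.2 RPKM in the mutant and 6.41 RPKM in the wild type, from 15 and 31 reads, a ratio of 1.16 [0.28, 2.21]. GADD45B was at 62.3 RPKM in the mutant and 31.1 RPKM in the wild type, a ratio of 1.00 [0.20, 1.80] that sits on the 2-fold line. EGR1 and GADD45B were short of 2-fold with 5 RPKM added, at 0.85 and 0.92, and after thinning, at 0.83 and 0.98.

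JUND was also higher in the untreated mutant, at 105 RPKM against 60.4 RPKM in the untreated wild type, a ratio of 0.81 [0.39, 1.23] that excludes 0 but is under 2-fold. ATF3 at 0.69 [−0.02, 1.36] and IER2 at 0.35 [−0.30, 0.97] had intervals that include 0. So did FOS at 0.22, JUNB at −0.02, BTG2 at −0.08 and JUN at −0.15. The median of the 10 was 0.52, with 7 above 0.

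With erythromycin in both genotypes, the order for GADD45B turned over. GADD45B was at 58.8 RPKM in the treated mutant and 177 RPKM in the treated wild type, a ratio of −1.64 [−2.24, −1.11]. EGR2 was at 30.2 RPKM in the treated mutant and 8.75 RPKM in the treated wild type, a ratio of 1.62 [1.03, 2.43]. In this comparison 1 of 10 members, EGR2, was at least 2-fold higher, against a background of 7.02%, and 2, GADD45B and FOS, at least 2-fold lower, against 2.26%. FOS at −1.24 [−3.43, 0.07] rests on 4 reads in the mutant, its interval includes 0, and after thinning it stood at 1.07.

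Under 2-fold, IER2 at −0.83 [−1.36, −0.36] and JUN at −0.44 [−0.74, −0.16] were lower in the treated mutant than in the treated wild type, and BTG2 was higher at 0.76 [0.33, 1.20], with intervals that exclude 0. BTG2 was at 160 RPKM in the treated mutant and 90.2 RPKM in the treated wild type. JUNB at −0.76, ATF3 at −0.39, JUND at 0.33 and EGR1 at −0.04 had intervals that include 0. The comparisons with and without erythromycin use different libraries, whereas each of them shares a library with each erythromycin comparison. The median ratio of the 10 in treated cells was −0.42.

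Genotype and treatment were also tested together, in an additive limma model across all 9612 genes. For mutant over wild type, EGR2 rose by 1.95 (SE 0.377, limma, adjusted p = 0.00945) and was 1 of 10 members that passed, against a background of 1.95% of tested genes. EGR2 was higher in the mutant in both treatments. JUND had a log2 difference of 0.57 (adjusted p = 0.357, limma) and EGR1 of 0.56 (adjusted p = 0.596), and neither passed. The model has 1 residual degree of freedom against 14.62 prior degrees of freedom, so the errors rest mostly on the variance trend over all genes. When the term for treatment was left out, the adjusted p of EGR2 was 0.233, and at a minimum mean of 20 RPKM it was not tested.

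For erythromycin over none, 0 of 10 members passed limma at 0.05, against a background of 0.25% of tested genes. At an unadjusted limma p under 0.05 there were 4 of 10 members, against 6.18% of tested genes. That count is a description only, as the members were chosen with earlier results known. EGR2 had a log2 difference of 1.34 (SE 0.377, adjusted p = 0.293), GADD45B of 1.18 (SE 0.418, adjusted p = 0.569), JUNB of −0.81 (SE 0.303, adjusted p = 0.630) and ATF3 of 0.64 (SE 0.283, adjusted p = 0.758). With no filter on low values GADD45B passed (limma, adjusted p = 0.0388). The model has no interaction term and gives 1 common response for both genotypes. The GADD45B ratios were −0.14 in the mutant and 2.48 in the wild type, so its common response describes neither genotype.

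EGR2 had the widest spread over the 4 libraries. It was at 30.2 RPKM in the mutant with erythromycin, 13.9 RPKM in the mutant without it, 8.75 RPKM in the wild type with it and 2.12 RPKM in the wild type without it. It was thus higher in the mutant at either treatment and higher with erythromycin in either genotype. Relative to EGR1, EGR2 stood at 2.89 [1.61, 5.40] times the EGR1 RPKM in the treated mutant, at 0.912 [0.390, 2.09] in the untreated mutant, at 0.849 [0.520, 1.37] in the treated wild type and at 0.331 [0.139, 0.713] in the untreated wild type. The summed level of 6 blood cell markers ran in the same order of libraries, at 138 and 119 RPKM in the mutant with and without erythromycin and 94.1 and 9.48 RPKM in the wild type with and without it. The leukocyte integrin ITGB2 was listed in all 4 libraries, PTPRC and LYZ were listed in 0, and their part in the EGR2 result was not tested.

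Within AP-1, the make-up of footprints differed between the mutant and the wild type libraries. JUND was at 0.789 [0.607, 1.02] and 0.787 [0.559, 1.10] times the JUN RPKM in the mutant with and without erythromycin, against 0.460 [0.389, 0.542] and 0.402 [0.337, 0.478] in the wild type with and without it. The intervals of the mutant libraries did not overlap those of the wild type libraries. They cover counting error only, and the JUND to JUN ratio was not tested against replicates. JUND thus made up 31.1% and 30.0% of the summed RPKM of FOS, JUN, JUNB, JUND and ATF3 in the mutant with and without the drug, against 20.5% and 20.6% in the wild type. ATF3 made up 24.8% and 21.7% in the mutant and 27.2% and 16.2% in the wild type, with and without erythromycin in each. FOS stayed between 1.03% and 2.35%.

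**Figure D4:**
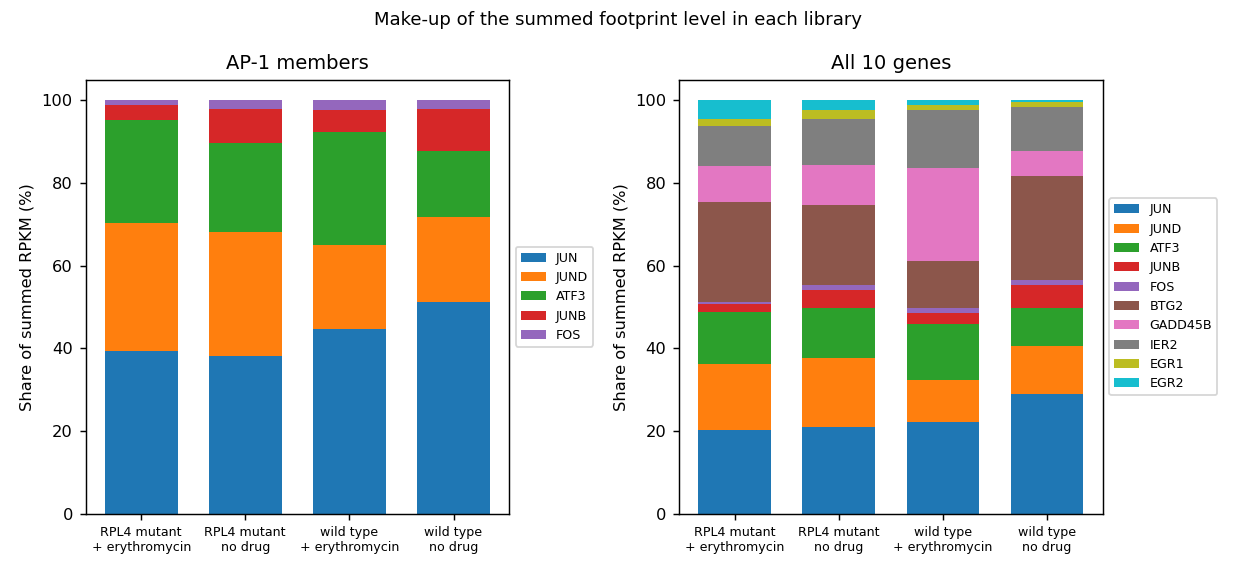
Share of each gene in the summed RPKM of the AP-1 members (left) and of all 10 genes (right) in each library. JUND takes 31.1% and 30.0% of the AP-1 sum in the mutant libraries and 20.5% and 20.6% in the wild type libraries.

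Together the 10 genes took 0.0519% [0.0476, 0.0566] of reads in the treated mutant, 0.0503% [0.0449, 0.0563] in the untreated mutant, 0.0590% [0.0561, 0.0621] in the treated wild type and 0.0406% [0.0383, 0.0429] in the untreated wild type (95% Wilson intervals). The untreated wild type was lowest, and its interval lay below those of the other 3 libraries. GADD45B stood at 0.366 [0.233, 0.563] times the BTG2 RPKM in the treated mutant, 0.513 [0.281, 0.914] in the untreated mutant, 1.96 [1.56, 2.48] in the treated wild type and 0.238 [0.170, 0.328] in the untreated wild type. The treated wild type was the only library where GADD45B exceeded BTG2.

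The genes share compact structures that the choice by name did not use. Each member has at most 4 exons, against 19.9% of tested genes, and JUN, JUNB, JUND and IER2 have a single exon, against 2.67% of tested genes. The median GC content of their coding sequences was 64.0%, against 52.2% for tested genes, and it ran between 51.1% in ATF3 and 73.3% in JUND. JUNB, JUND, IER2 and GADD45B lie on chromosome 19, which holds 6.79% of tested genes. The pentamer ATTTA, the core of AU-rich decay elements, did not set them apart. It stood after the stop codon in 8 of 10, against 66.4% of tested genes, with 5 copies in FOS, 3 each in JUN and ATF3 and 0 in IER2 and GADD45B. At least 4 copies stood in 1 of 10, against 32.0% of tested genes, and the median count was 1.5, against 1. The listed GADD45B transcript has only 23 bases after the stop codon, against a median of 917 for tested genes. Its count of 0 therefore does not show that GADD45B mRNA lacks ATTTA, and no other GADD45B transcript was counted.

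The listed transcript was compared with another transcript of the same gene for BTG2 and GADD45B. BTG2 is listed as BTG2-202, annotated as a target of nonsense-mediated decay, whose coding sequence of 477 bases is identical to that of BTG2-201, so footprints cannot assign reads to either. GADD45B is listed as GADD45B-204 with 531 coding bases, of which the first 369 are shared with GADD45B-201, so its RPKM can hold reads of both.

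A wider list held 60 other immediate early genes, of which 44 were tested. With erythromycin in the mutant, 2 were at least 2-fold higher and 4 lower (4.55% and 9.09%, against 6.22% and 3.39% of all tested genes), with a median ratio of 0.07. With erythromycin in the wild type, 6 of these 44 genes passed 2-fold upwards and 2 downwards (13.6% and 4.55%, against 1.73% and 1.54% of all tested genes), with a median ratio of 0.12. GADD45A, a p53-induced relative of GADD45B, was at 162 RPKM with and 77.9 RPKM without the drug, a ratio of 1.06 [0.73, 1.41]. PPP1R15A, the phosphatase subunit that reverses phosphorylation of eIF2α, was at 31.3 RPKM with and 14.7 RPKM without it, a ratio of 1.06 [0.73, 1.5], and GADD45G was at 1.04 [0.34, 1.84]. MAFF, a small MAF protein, was lower at 24.5 RPKM with and 67.4 RPKM without erythromycin, a ratio of −1.41 [−2.08, −0.85]. In the mutant GADD45A was at 105 RPKM with and 66.4 RPKM without erythromycin, and PPP1R15A at 29.3 and 22.1 RPKM. MAFF was at 34.6 and 20.1 RPKM there. GADD45G was at 21.0 RPKM with and 10.3 RPKM without the drug in the mutant, from 10 and 3 reads, a ratio of 0.90 [−0.99, 3.47].

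For the difference of responses 2 were higher and 6 lower (4.55% and 13.6%, against 8.29% and 5.6% of all tested genes), with a median of −0.09, and MAFF was the highest of those above 20 RPKM at 2.11 [0.66, 3.51]. PPP1R15A at −0.72 [−1.52, −0.01], RHOB at −0.70 [−1.30, −0.12] and IER5 at −0.58 [−1.14, −0.05] were the lowest of those. Mutant over wild type gave 3 higher and 6 lower with erythromycin (6.82% and 13.6%, against 7.02% and 2.26% of all tested genes), median −0.15. It gave 4 higher and 1 lower without the drug (9.09% and 2.27%, against 5.29% and 3.32%), median −0.11. In limma, 4 of the 44 were at an unadjusted p under 0.05 for erythromycin, against 6.18% of all tested genes. For genotype 5 were, against 12.4%. After adjustment 0 passed for erythromycin, against 0.25% of all tested genes, and 2 for genotype, against 1.95%. The 2 were EGR4, a further EGR-family factor that rose by 1.42 (SE 0.331, adjusted p = 0.0364), and AMIGO3, an adhesion protein that rose by 2.04 (SE 0.487, adjusted p = 0.0410), and both were named after their values were seen.

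EGR4 was higher in both mutant libraries than in both wild type libraries. It was at 24.5 and 19.6 RPKM in the mutant with and without erythromycin, against 7.74 and 7.24 RPKM in the wild type with and without it. Its erythromycin ratio was 0.25 [−0.52, 1.09] in the mutant and 0.10 [−0.59, 0.81] in the wild type.

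**Figure D5:**
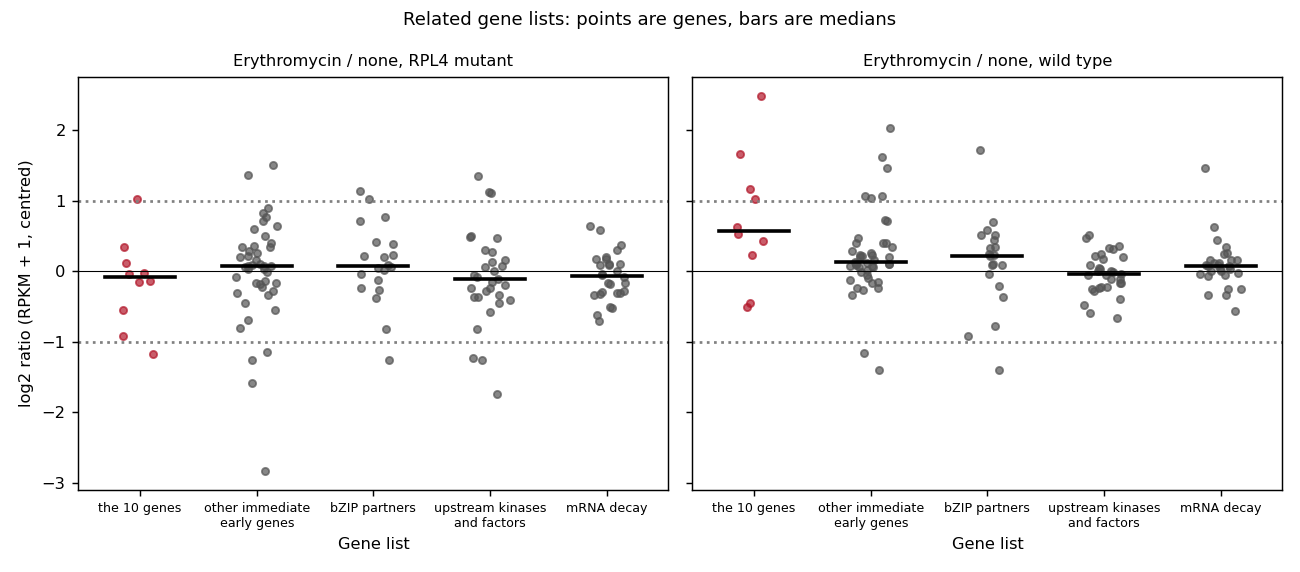
Erythromycin response (centred log2 ratio of RPKM + 1) in the RPL4 mutant (left) and the wild type (right) for the tested genes of each list, with bars at list medians and dotted lines at 2-fold. The median of the 10 genes is −0.09 in the mutant and 0.58 in the wild type.

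The upstream kinases and transcription factors that drive these genes, 36 symbols of which 31 were tested, had 3 genes at least 2-fold higher and 3 lower with erythromycin in the mutant (9.68% each, against 6.22% and 3.39% of all tested genes), with a median of −0.11. In the wild type 0 were past 2-fold in either direction, against 1.73% and 1.54% of all tested genes, with a median of −0.05. ATF1, which binds cAMP response elements, was at 22.2 RPKM in the treated mutant and 52.7 RPKM in the untreated mutant, a ratio of −1.26 [−2.25, −0.38], against 51.8 and 36.4 RPKM in the treated and untreated wild type. ELK1, an ETS partner of serum response factor, had mutant over wild type ratios of 0.72 [0.13, 1.37] with and 0.68 [−0.05, 1.43] without erythromycin. For mutant over wild type the list had 0 higher and 1 lower with erythromycin (median −0.15, background 7.02% and 2.26%) and 2 higher and 1 lower without it (median −0.16, background 5.29% and 3.32%). The difference of responses had 2 higher and 4 lower (median −0.12, background 8.29% and 5.6%). In limma 0 of 31 passed in either comparison, against 0.25% of all tested genes for erythromycin and 1.95% for genotype. At an unadjusted p under 0.05 there were 1 for erythromycin and 2 for genotype, against 6.18% and 12.4% of all tested genes.

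Of 23 other leucine-zipper genes that could pair with AP-1 or ATF proteins, 20 were tested, with 2 higher and 1 lower with erythromycin in the mutant (10% and 5%, against 6.22% and 3.39% of all tested genes, median 0.07). In the wild type 1 was higher and 1 lower (5% each, against 1.73% and 1.54%, median 0.22). MAFF and ATF1 are on this list too. DDIT3, known as CHOP, was at 27.8 and 25.7 RPKM in the mutant with and without erythromycin, against 53.4 and 15.7 RPKM in the wild type with and without it. Its ratio in the wild type was 1.72 [1.13, 2.47]. ATF5 was at 54.5 RPKM with and 25.3 RPKM without erythromycin in the mutant, a ratio of 1.02 [0.14, 2.07]. Mutant over wild type had 1 higher and 1 lower with erythromycin (median 0.03, background 7.02% and 2.26%) and 1 higher and 2 lower without it (median −0.09, background 5.29% and 3.32%). The difference had 2 higher and 3 lower (median 0.03, background 8.29% and 5.6%). In limma 0 of 20 passed in either comparison, against 0.25% of all tested genes for erythromycin and 1.95% for genotype. At an unadjusted p under 0.05 there were 2 in each comparison, against 6.18% and 12.4% of all tested genes.

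Genes of mRNA decay and deadenylation, 29 symbols of which 28 were tested, were close to the median gene. With erythromycin 0 were past 2-fold in the mutant, against 6.22% higher and 3.39% lower of all tested genes (median −0.07). In the wild type 1 was higher and 0 lower, against 1.73% and 1.54% (median 0.07). HNRNPD, which binds AU-rich elements, was at 295 and 349 RPKM in the mutant with and without erythromycin, against 483 and 359 RPKM in the wild type with and without it. Its difference of responses was −0.74 [−1.01, −0.47]. Mutant over wild type had 0 higher and 1 lower with erythromycin (median −0.18, background 7.02% and 2.26%) and 0 past 2-fold without it (median −0.02, background 5.29% and 3.32%). The difference of responses had 0 higher and 1 lower (median −0.19, background 8.29% and 5.6%). In limma 0 of 28 passed in either comparison, against 0.25% of all tested genes for erythromycin and 1.95% for genotype. At an unadjusted p under 0.05 there were 0 for erythromycin and 1 for genotype, against 6.18% and 12.4% of all tested genes.

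For the 3 members with the widest range over libraries, the genes with the most similar pattern were found by Euclidean distance between log2(RPKM + 1) values centred on each gene, over the 4 libraries, among genes averaging 20 RPKM or more. GADD45B was closest to PHLDA2, an imprinted growth regulator, at a distance of 0.218, which was at 15.4 and 18 RPKM in the mutant with and without erythromycin and 47.7 and 9.55 RPKM in the wild type with and without it. NAP1L2 at 0.479 and DDIT3 at 0.587 came next. EGR2 was closest to the adhesion molecule NCAM1 at 0.385, which was at 124 and 56.1 RPKM in the mutant with and without erythromycin and 42.4 and 8.64 RPKM in the wild type with and without it, followed by AHNAK at 0.390 and CTSF at 0.447. FOS was closest to ZMAT5 at 0.128, ABHD17B at 0.198 and RND3 at 0.207. With 4 points each, these are descriptions of the libraries.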

How the data were processed

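Ribosome-protected fragments were measured in 4 libraries, 1 per group. The authors deposited 1 RPKM value per transcript and library, and per the submitters' processing notes cutadapt, STAR and GRCh38 were used. The sources used here give neither their roles and versions nor the read counter, strand setting or annotation. Transcripts absent from a file were read as 0. RPKM times coding length (GENCODE 29) gave whole reads, within 0.01, for 99.2% to 99.3% of matched transcripts.

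Genes averaging 5 RPKM or more were kept, and log2(RPKM + 1) ratios were centred on their median. Counting intervals are exact conditional 95% intervals, except for the difference of responses (normal approximation, 0.5 counts added). A gene was counted at 2-fold or beyond. limma 3.58.1 (R 4.3.3) fitted genotype and treatment with a variance trend, and p-values were adjusted by Benjamini-Hochberg with a threshold of 0.05. It compares 2 libraries with 2 and is exploratory. The scripts were tested on simulated data. Promoters came from RefSeq (GRCh38.p14).

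The members and gene lists were chosen with earlier results of these data known. The genes named outside the 10 were, in each of 5 comparisons among genes averaging 20 RPKM or more, the 3 highest and 3 lowest other immediate early genes and the highest and lowest of each further list. Alternatives changed the pseudocount, filter, scaling, depth and model. Intervals cover counting error only, since fragments without molecular identifiers are not independent molecules.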

Additional observations from a re-analysis of the deposited data

Results flagged for a closer look

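The erythromycin response lay on opposite sides of 0 in the genotypes for 7 of the 10 genes, and for 4 of these the counting interval of the difference also excluded 0. The other 3, FOS, JUN and JUND, had intervals that include 0. With no centring JUN and JUND were at 0.02 each in the mutant, on the same side of 0 as in the wild type. The share of all tested genes on opposite sides of 0 was not computed, so the count of 7 has no background. As the response in the mutant minus that in the wild type, the log2 difference was −2.62 for GADD45B, −1.18 for EGR1, −1.17 for IER2 and 0.86 for BTG2. With 1 library per group these differences were not tested against replicates. The mutant ratios of GADD45B, EGR1, IER2 and BTG2 had counting intervals that include 0, so the opposite sign itself is not resolved at this depth.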

How the results depend on the processing

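Of 385 values of the 10 genes under other settings, 381 stayed within their counting interval, 2 left it and 2 that had been past 2-fold changed sign. Both sign changes were of FOS after thinning each library to 604506 reads, at 1.07 for mutant over wild type with erythromycin and 0.78 for the difference of responses. FOS had 4 reads in the treated mutant, and thinning was a single random draw, so another draw could give other signs and calls. Comparisons are given here in the order erythromycin in the mutant, erythromycin in the wild type, mutant over wild type with and without erythromycin, and difference of responses. Genes of all tested past 2-fold, of which there were 924, 314, 892, 827 and 1335, numbered 477, 114, 457, 409 and 759 with 5 RPKM added, 1981, 697, 1671, 1860 and 2544 at a minimum mean of 1 RPKM, 266, 107, 310, 254 and 437 at 20 RPKM, and 2922, 925, 2218, 2458 and 3622 with no filter. Thinning gave 1017 for erythromycin in the wild type, 1440 for treated mutant over wild type and 2047 for the difference. With 5 RPKM added, members past 2-fold numbered 0 and 2 for erythromycin in the mutant and wild type, 1 for the untreated mutant and 2 for the difference. At 20 RPKM, where EGR1, EGR2 and FOS were not tested, they numbered 1 for erythromycin in the mutant, 1 each for the treated and untreated mutant and 3 for the difference. After thinning they numbered 1 for erythromycin in the mutant and 1 for the untreated mutant, and in the wild type with erythromycin 2 higher (EGR2, GADD45B) and 1 lower (FOS, at −1.47) in place of 4 and 0. Calls lost with 5 RPKM added were EGR2 and JUNB for erythromycin in the mutant, EGR2 and IER2 in the wild type, FOS for the treated mutant, EGR1 and GADD45B for the untreated mutant, and FOS, EGR1 and ATF3 for the difference. Calls lost after thinning were EGR2 for erythromycin in the mutant, IER2 and ATF3 in the wild type, EGR1 and GADD45B for the untreated mutant, and FOS and EGR1 for the difference, while IER2 at −1.11 became lower in the treated mutant and EGR2 at −1.32 for the difference. GADD45B, at 1.00 for the untreated mutant, was also short of 2-fold at 1 RPKM, with no filter and with no centring, and ATF3 for the difference with no centring. FOS became lower for erythromycin in the mutant with 0.1 RPKM added. For erythromycin limma called 24 genes, and 68 with 0.1 RPKM added, 67 at 1 RPKM, 42 at 20 RPKM and 99 with no filter. It called 0 with no variance trend (535 at an unadjusted p under 0.05) and 0 with no term for genotype (246). For genotype it called 187, and 284, 290 and 341 with 0.1 RPKM added, at 1 RPKM and with no filter, 91 with no trend and 54 with no term for treatment. The causes were not tested, beyond the change in the number of genes tested. A filter over only the compared libraries was chosen after seeing the data and changed no member's call. No paired analysis was possible because the labels link no libraries beyond their groups.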

Other observations

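Low-level immediate early genes had wide ratios, and 3 are given here, chosen after their values were seen. SNAI1, a repressor of epithelial genes, had 1 and 7 reads in the mutant with and without erythromycin and 34 and 8 reads in the wild type with and without it. Its ratio for erythromycin was −2.83 [−9.07, −0.62] in the mutant and 2.03 [1.18, 3.64] in the wild type. ARC, a synaptic gene widely used to mark neuronal activity, had 5 and 8 reads in the mutant with and without erythromycin and 35 and 11 reads in the wild type with and without it, with ratios of −1.27 [−3.41, 0.35] and 1.62 [0.89, 3.03]. ZFP36, a protein that binds AU-rich elements and directs mRNA decay, had 6 and 4 reads in the mutant and 42 and 16 reads in the wild type, with ratios of −0.17 [−2.26, 2.08] and 1.46 [0.76, 2.55]. These 3 are among the 6 of 44 listed genes that were at least 2-fold higher with erythromycin in the wild type (13.6%, against 1.73% of all tested genes). Their shared direction there follows from the choice. Other low-level genes of the list went otherwise. KLF2 was at −1.16 [−2.77, −0.22] in the wild type, and DUSP8 was at 1.36 [0.14, 3.29] in the mutant and 0.72 [−0.21, 2.28] in the wild type. None of the 3 was 2-fold higher in the mutant, and these differences were not tested against replicates.

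ATF4, the leucine-zipper factor whose translation rises when eIF2α is phosphorylated, had ratios for erythromycin of 0.41 [0.08, 0.75] in the mutant and 0.34 [0.16, 0.51] in the wild type, at 237 and 172 RPKM in the mutant with and without the drug and 208 and 166 RPKM in the wild type with and without it. It was chosen after its values were seen.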
